A study of Mus musculus with 9 samples.

Results

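In femoral fracture callus of mice aged 2 months, sorted ITGAV+ cells carried an RNA profile led by genes of cartilage matrix. Col2a1, the chain of type II collagen, and Sparc, a glycoprotein that binds collagen and mineral, held ranks 1 and 2 of 53607 gene rows. The profile is that of 3 libraries, of 9 in the whole series, and they were taken because their column headers name the age of 2 months. All 3 came from C57BL/6J mice, from callus of the femur at 10 days after injury, and the labels give the treatment as NA. The cells are labelled mSSC, for mouse skeletal stem cell, and were gated CD45-, TER119-, TIE2-, THY1-, 6C3-, CD105- and ITGAV+. Between 500 and 1000 cells went into a sample. The RNA was amplified with a kit for very low input and read as paired ends of 76 bases, with an average of about 45000000 mapped reads a sample per the labels' protocols. The labels do not say whether the 3 samples came from separate animals, so the spread given here may in part be technical.

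A fracture that heals through callus first builds cartilage, whose cells, the chondrocytes, mature, enlarge (hypertrophy) and give way to bone. Skeletal stem cells are defined by surface markers and by their capacity to give rise to cartilage, bone and stroma. Sox9 directs the chondrocyte program, Runx2 and Sp7 direct hypertrophy and bone formation, and Indian hedgehog (Ihh) and parathyroid hormone-related protein (Pthlh) regulate each other between zones of growing cartilage.

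Col2a1, Sparc, Sox9 and Itgav were read first. Levels are in TPM, transcript abundance per length scaled so that each library sums to 1000000, and are relative to all RNA of the library. Col2a1 was at 39537, 37393 and 41553 TPM in libraries 1, 2 and 3, a mean of 39494 ± 2081 (SD, n = 3). Sparc was at 24935, 22998 and 25817 TPM, a mean of 24584 ± 1442. Sox9 was at 375, 513 and 461 TPM (450 ± 69.8) and ranked 385. Itgav, the integrin chain used for the positive gate, was at 41.7, 50.1 and 48.6 TPM (46.8 ± 4.45) and ranked 2805. All 4 genes were present in every library. Itgav was used for the gate and the others were not part of it, so these levels do not test the label mSSC.

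Of the proteins gated out, the genes for CD45, TIE2, THY1, 6C3 and CD105 were low. Thy1 was at 1.54, 1.11 and 1.24 TPM, and Eng, which encodes CD105, at 1.29, 1.09 and 1.01. Enpep, which encodes 6C3, was at 0.0710, 1.41 and 0.616 TPM, and Tek, which encodes TIE2, had a mean of 0.190. Ptprc, which encodes CD45, was listed at 0 in all 3 libraries. Among the gate genes given here, Itgav alone exceeded 2 TPM in any library. No level is given for the TER119 gate, and Hba-a2, a haemoglobin gene of red cells, was at 74.2, 109 and 167 TPM.

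The libraries were alike in breadth. Between 13465 and 13813 rows reached 1 TPM in a library, and 11960 rows (22.3%) did so in all 3, which is called detected below. A mean of 10 TPM or more was reached by 7060 rows (13.2%) and of 100 or more by 1508 (2.81%). Among 21754 protein-coding genes, 10671 (49.1%) were detected, 6700 (30.8%) had a mean of 10 TPM or more and 1436 (6.60%) a mean of 100 or more. Counts of list members given below are to be read beside these shares. Pearson's r between pairs of libraries was 0.964 to 0.965 across the 13641 genes with a mean of 1 TPM or more, on the log2(TPM + 1) scale. This describes genes within shared libraries, and genes are not independent replicates.

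The RNA pool was concentrated in few genes. The 10 genes of highest mean held 12.9 ± 1.15% of each library's summed TPM, the first 50 held 26.6 ± 1.26% and the first 100 held 35.2 ± 1.13% (SD, n = 3). Col2a1 alone held 3.95 ± 0.208%. The 44 collagen genes examined held 7.20 ± 0.385%, and the 225 genes of all matrix lists held 19.8 ± 1.40%. Mitochondrially encoded RNA took 1.29 ± 0.0914% and 85 ribosomal protein genes 6.45 ± 0.615%. The 227 receptor, 193 ligand and 278 transcription factor genes took 0.706 ± 0.0494%, 1.18 ± 0.0861% and 2.38 ± 0.1002%.

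Matrix genes filled the next ranks. Comp, which binds collagen fibrils in cartilage and tendon, ranked 3 at 10915, 9043 and 11333 TPM (10431 ± 1219). Spp1, osteopontin, a phosphorylated protein of bone and hypertrophic cartilage, followed at 8743, 6157 and 11937 TPM (8946 ± 2895). Its highest library was 1.94 times its lowest. Col9a3, a chain of the collagen on the surface of cartilage fibrils, was at 8163, 8102 and 8260 TPM (8175 ± 79.9), a coefficient of variation (CV, the SD as a percent of the mean) of 0.978%.

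Further down stood Mgp, an inhibitor of mineral deposition, at 6997 ± 1151 TPM. C1qtnf3, a secreted protein of growth cartilage, was at 6777 ± 1638, and Gpx3, a secreted glutathione peroxidase, at 6545 ± 321. Cnmd, chondromodulin, an anti-angiogenic protein of avascular cartilage, was at 6242 ± 164 TPM. Clec3a, a cartilage lectin, stood at 3873 ± 510, and Itm2a, a membrane protein of chondrogenic cells, at 3957 ± 839. The extracellular protease inhibitor Cst3 had 7003 ± 1441 TPM and Fn1, fibronectin, 3182 ± 421.

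General cell genes filled the rest of these ranks. Ubb, which encodes ubiquitin, was at 3066 ± 163 TPM. The ferritin chains Ftl1 and Fth1 were at 4867 ± 256 and 3804 ± 452, and the isomerase Ppia at 3616 ± 415. The nuclear RNA Malat1 stood at 7783 ± 1141 TPM. At rank 8 stood Gm24245, a 57-base miRNA gene model on chromosome 4 that overlaps no other row, at 8865, 7661 and 5682 TPM (7402 ± 1607). Gene models whose longest transcript is under 200 bases held 1.46 ± 0.209% of the pool, and the TPM of such short models rests on a large correction for length.

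**Figure D1:**
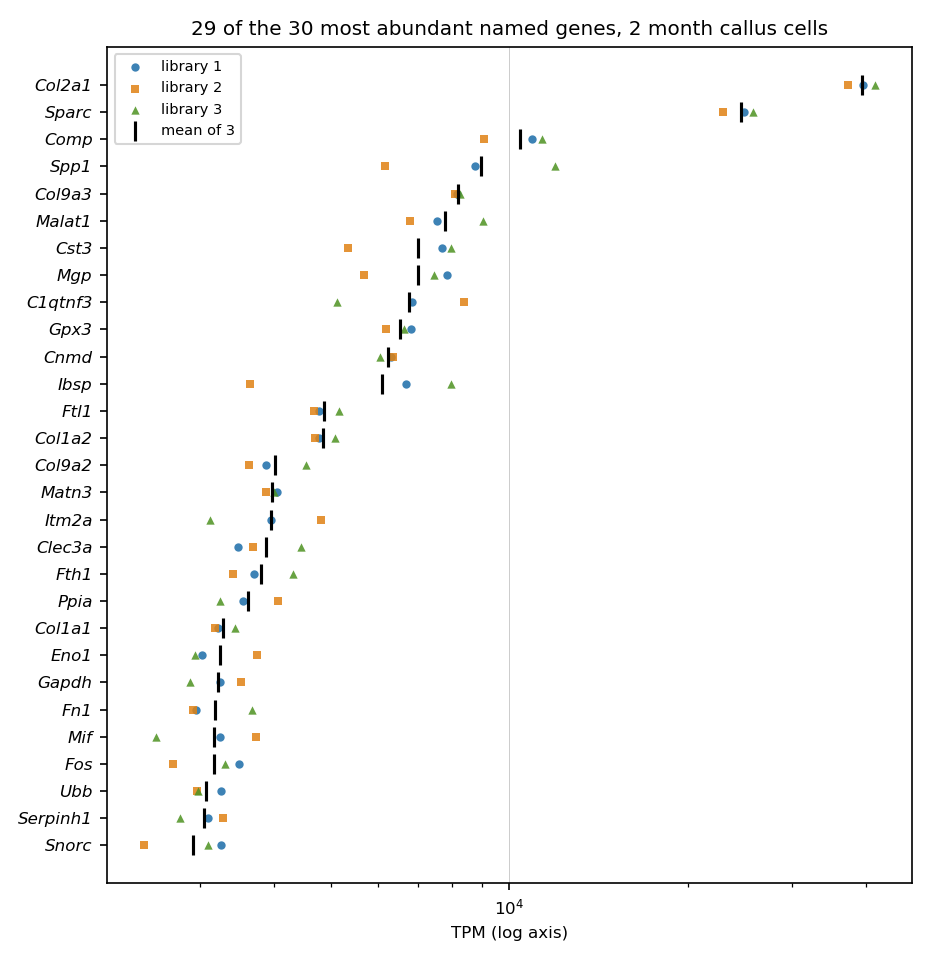
TPM (log axis) of 29 of the 30 most abundant named genes in the 3 libraries of 2 month callus cells; points are libraries and bars the mean. Col2a1 and Sparc lie apart from the rest, and Spp1 and Ibsp are the genes whose 3 points lie farthest apart.

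The collagens covered a wide range, with one set of means above 1000 TPM, 6 genes from Col6a3 (114 ± 9.13) to Col12a1 (372 ± 38.1) below it, and a long low tail. Of 11 fibrillar collagen genes, 10 were detected, with a median of 1254 TPM, against a median of 1.51 TPM over all protein-coding genes. Of 33 other collagens, 18 were detected, near the 49.1% of all protein-coding genes, and the median was 2.32 TPM. Cartilage types came first. After Col2a1, the type IX chains Col9a3, Col9a2 (4014 ± 463) and Col9a1 (2269 ± 113) and the type XI chains Col11a1 (1511 ± 145) and Col11a2 (1254 ± 98.1) were all above 1000 TPM.

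Collagens of bone, tendon and stroma were also abundant. Col1a1 was at 3215, 3177 and 3442 TPM (3278 ± 143) and Col1a2 at 4776, 4698 and 5071 (4848 ± 197). These chains of type I collagen kept a nearly fixed proportion, with Col1a2 1.47 to 1.49 times Col1a1 in the 3 libraries. Col2a1 exceeded Col1a1 by 11.8 to 12.3 times. Col3a1, of loose and repairing tissue, was at 2141 ± 240 TPM, and the microfibril chains Col6a1 and Col6a2 were at 1252 ± 43.5 and 1032 ± 34.3. Levels of different genes are compared here on the TPM scale, which is per transcript length.

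Col10a1, the collagen of hypertrophic cartilage, stood at 1116, 927 and 1763 TPM (1269 ± 439). Library 3 was the highest and library 2 the lowest, and the other abundant collagens had far closer values. Basement membrane type IV chains lay near the detection limit, with Col4a1 at 4.16 ± 0.642 TPM and Col4a2 at 2.84 ± 1.97. Col17a1, an epithelial collagen, had a mean of 0.982 TPM.

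**Figure D2:**
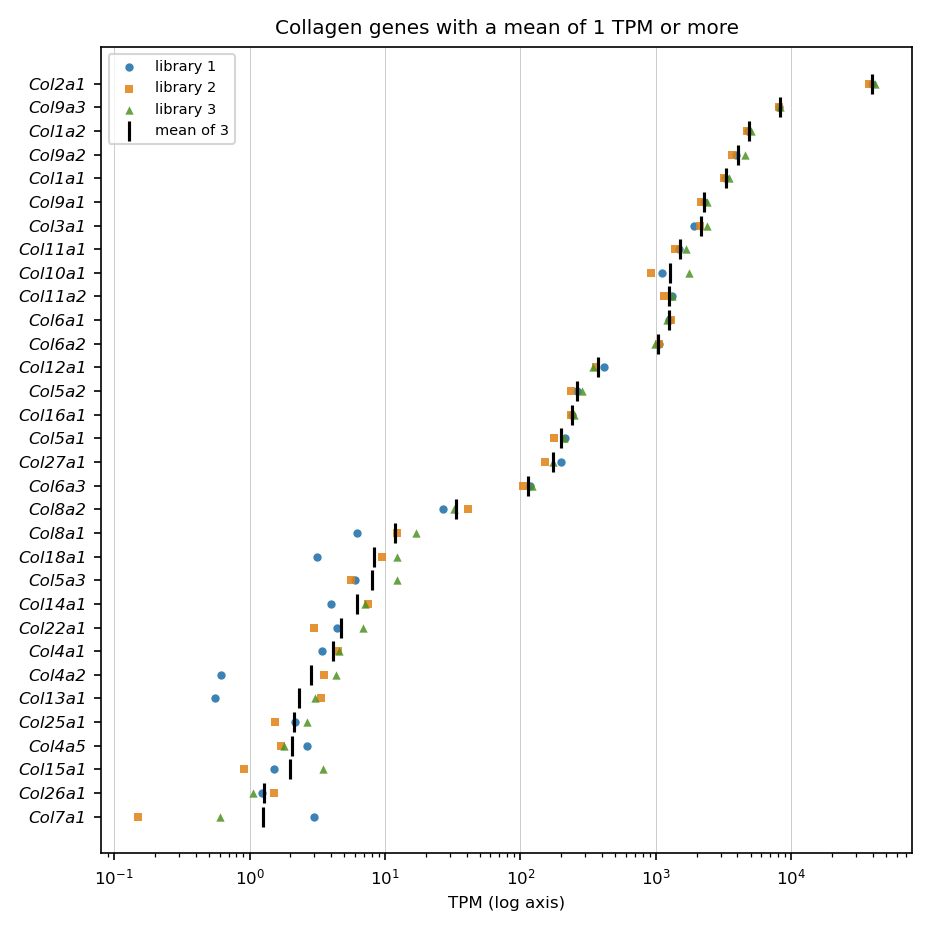
TPM (log axis) of the collagen genes with a mean of 1 TPM or more; points are libraries and bars the mean of 3. The means from Col2a1 to Col6a2 lie above 1000 TPM, with the 3 points close together apart from Col10a1, while points scatter widely below 10 TPM.

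Proteoglycans and their link proteins were broadly present: 29 of 37 were detected and 16 had a mean of 100 TPM or more. Small leucine-rich members led. Decorin (Dcn) was at 2459 ± 221 TPM, Chad, a chondrocyte-binding protein, at 2142 ± 310, Fmod at 1929 ± 18.7, Bgn at 1359 ± 62.4 and Lum at 1223 ± 81.0. Acan, the large aggregating proteoglycan of cartilage, was at 821, 739 and 787 TPM (782 ± 41.4), and its link protein Hapln1 at 813, 711 and 791 (772 ± 53.9). Both were highest in library 1 and lowest in library 2. Col2a1 exceeded Acan by 48.1 to 52.8 times. The brain proteoglycan Ncan, by contrast, had a mean of 0.00139 TPM.

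All 16 glycoproteins of cartilage were detected, 12 of them at 100 TPM or more, and the median of their means was 1538 TPM. The median was 1646, 1683 and 1225 TPM in the single libraries, and that of the chondrocyte list was 1518, 1523 and 1278. Besides Comp, Mgp and Cnmd, the list held Matn3, a matrilin that links cartilage fibrils, at 4049, 3874 and 4000 TPM (3974 ± 90.6). Snorc, a membrane proteoglycan of chondrocytes, was at 2921 ± 449, and Mfge8, an integrin-binding milk fat globule protein, at 2153 ± 288. Matn1 was much lower than Matn3, at 426 ± 35.6 TPM.

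The bone glycoproteins were uneven. Of 15, 11 were detected, and the median was 20.1 TPM, far below the top members. Their summed share of the pool was 4.24 ± 0.678%, beside 3.86 ± 0.283% for the cartilage glycoproteins. Sparc and Spp1 were followed by Ibsp, bone sialoprotein, a nucleator of mineral, at 6691, 3644 and 7967 TPM (6101 ± 2222). Postn, an adhesion protein of periosteum, was at 1316 ± 57.1 and Alpl, the phosphatase needed for mineral growth, at 1210 ± 273. Bglap, osteocalcin, a product of mature osteoblasts, was at 17.3, 14.0 and 17.3 TPM (16.2 ± 1.88). Ibsp was 260 to 461 times and Spp1 439 to 690 times Bglap in the single libraries. Bglap, Bglap2 (7.04 ± 1.54) and Bglap3 (0.465) are near-identical copies, so the division of reads among them is uncertain.

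Ibsp, Spp1, Col10a1 and Ihh were among the 12 genes of highest CV at 100 TPM or more, whereas the CV of Matn3 was 2.28%, so the 200 bases before the start of these 5 genes are shown. The sequences are from RefSeq on GRCm38.p6, read 5′ to 3′ on the gene's strand, from chr5:104299087-104299286 (plus strand) for Ibsp, chr5:104434911-104435110 (plus) for Spp1, chr10:34389781-34389980 (plus) for Col10a1, chr1:74951673-74951872 (minus) for Ihh and chr12:8947729-8947928 (plus) for Matn3. Capitals mark matches on either strand to the TATA box TATAAA (or TTTATA), the RUNX motif AACCACA (or TGTGGTT) and the CCAAT box (or ATTGG), which do not overlap here.
Ibsp: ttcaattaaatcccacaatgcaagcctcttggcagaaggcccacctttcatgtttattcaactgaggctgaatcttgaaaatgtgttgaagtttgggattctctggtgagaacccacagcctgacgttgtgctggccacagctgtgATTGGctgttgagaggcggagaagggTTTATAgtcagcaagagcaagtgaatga
Spp1: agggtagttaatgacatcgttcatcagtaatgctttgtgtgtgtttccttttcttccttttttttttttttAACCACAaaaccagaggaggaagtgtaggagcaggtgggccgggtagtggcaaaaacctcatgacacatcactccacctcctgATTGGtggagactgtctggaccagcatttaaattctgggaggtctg
Col10a1: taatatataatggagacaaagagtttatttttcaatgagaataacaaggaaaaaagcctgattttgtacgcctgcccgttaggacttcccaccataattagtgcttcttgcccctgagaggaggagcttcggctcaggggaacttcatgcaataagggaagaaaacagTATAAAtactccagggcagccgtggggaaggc
Ihh: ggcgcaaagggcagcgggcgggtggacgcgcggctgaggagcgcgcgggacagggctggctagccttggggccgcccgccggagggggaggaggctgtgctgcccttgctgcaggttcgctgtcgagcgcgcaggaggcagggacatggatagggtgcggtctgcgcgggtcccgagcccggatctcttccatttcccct
Matn3: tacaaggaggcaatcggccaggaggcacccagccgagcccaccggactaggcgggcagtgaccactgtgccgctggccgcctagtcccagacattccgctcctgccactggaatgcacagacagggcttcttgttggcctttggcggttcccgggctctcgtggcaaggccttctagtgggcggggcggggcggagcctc

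In the Ibsp promoter TTTATA lies 28 to 23 bases before the RefSeq start and ATTGG 54 to 50 bases before it. Col10a1 holds TATAAA at 32 to 27 bases, and Spp1 holds AACCACA at 129 to 123 and ATTGG at 46 to 42. None of the 3 motifs is in the windows of Ihh or Matn3. Of 32851 promoters in the table, 9.96% hold the TATA motif, 3.49% the RUNX motif and 29.3% the CCAAT motif in the same window. Of the 11 hypertrophic chondrocyte genes with a promoter in the table, 5 hold the TATA motif in one of their windows, beside 3149 of all 27025 genes (11.7%). The 5 include Ibsp and Col10a1, printed above. Among the 100 protein-coding genes of highest mean, 77 have a promoter in the table and 14 of these (18.2%) hold the motif. Of 18 chondrocyte genes 2 (11.1%) do. A match is a match of letters and no evidence of binding.

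Adhesive and matricellular proteins were present over a wide range: 38 of 46 were detected, with a median of 22.5 TPM. Fn1 led, followed by Ctgf and Cyr61, which are secreted integrin ligands also known as Ccn2 and Ccn1, at 2511 ± 405 and 2047 ± 311 TPM. Smoc2, a calcium-binding matrix protein, was at 904 ± 64.2, Efemp2, needed for elastic fibres, at 618 ± 35.8, and Emilin1 at 583 ± 18.3. The laminin chains Lama5, Lama3 and Lama1 had means of 0.0483, 0.0394 and 0.0182 TPM, while Lamb2 reached 45.7 ± 4.50.

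All 30 genes for collagen folding and crosslinking were detected, and their median was 215 TPM. The collagen chaperone Serpinh1 was at 3048 ± 255, the isomerase Ppib at 2726 ± 235, and P4hb, the shared subunit of prolyl hydroxylase, at 2150 ± 150 TPM. Pcolce, which enhances cleavage of procollagen, was at 765 ± 23.9, Fkbp10 at 726 ± 21.6 and the hydroxylase subunit P4ha2 at 625 ± 59.4. Of the crosslinking enzymes, Loxl2 (415 ± 53.1) and Lox (345 ± 54.8) led, and Loxl1 was at 13.2 ± 3.26. Secretory pathway genes were likewise complete, with 27 of 27 detected and a median of 312 TPM, led after Ppib and P4hb by Sec61b (1379 ± 133) and Hspa5 (1265 ± 176).

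Synthesis of sulfated sugar chains was covered by 30 detected genes of 33, with a median of 48.7 TPM. Ugdh, which makes the glucuronic acid donor, was at 797 ± 79.7, Papss2, which makes the sulfate donor, at 395 ± 75.9, and the sulfate transporter Slc26a2 at 303 ± 62.9 TPM. Chst12, a chondroitin sulfotransferase, stood at 223 ± 17.2. All 3 hyaluronan synthases were modest: Has1 at 48.7 ± 15.9, Has2 at 14.6 ± 3.79 and Has3 at 0.157.

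Of 37 proteases and inhibitors, 28 were detected. The inhibitor Timp1 was highest at 996 ± 61.9 TPM, before the lysosomal protease Ctsd (739 ± 30.6) and the serpin Serpine2 (623 ± 50.7). Mmp2, a gelatinase, was at 560 ± 27.7. Mmp13, the collagenase of hypertrophic cartilage, was at 415, 435 and 574 TPM (475 ± 86.7). Timp1 exceeded Mmp13 by 1.78 to 2.51 times. The aggrecanases Adamts4 and Adamts5 were near the detection limit, at 4.14 ± 0.630 and 1.41 ± 0.270 TPM, and Mmp9 was at 17.0, 3.60 and 6.63.

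The lineage lists set cartilage first. All 24 chondrocyte genes were detected, 20 of them at 100 TPM or more, with a median of 1521 TPM and a summed share of 9.04 ± 0.410% of the pool. Sox5 and Sox6, partners of Sox9, were at 84.5 ± 25.6 and 68.7 ± 4.13 TPM. Sox9 was 4.36 to 6.68 times Sox5. Ucma, a secreted protein of early chondrocytes, was at 1531 ± 285, Scrg1, a small secreted protein of chondrogenic cells, at 1544 ± 291, and Mia, a secreted cartilage protein, at 1707 ± 167.

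All 12 hypertrophic chondrocyte genes were also detected, with a median of 479 TPM. Their summed level was 12524, 8656 and 15678 TPM, or 1.23 ± 0.352% of the pool, lowest in library 2 and highest in library 3. Ibsp, at 6691, 3644 and 7967 TPM, was the largest part of this sum. The list median was 378, 440 and 599 TPM, lowest in library 1 and highest in library 3. Pth1r, the receptor of PTH and PTHrP, was at 1627, 1356 and 1857 TPM (1613 ± 251). Panx3, a channel of prehypertrophic cells and osteoblasts, was at 563, 444 and 735 (581 ± 146), and Vegfa, which attracts vessels, at 341, 483 and 624 (483 ± 142). Phospho1, a phosphatase of mineralising vesicles, stood lowest of the list at 20.1 ± 2.29 TPM.

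Osteoblast genes were more mixed. Of 22, 19 were detected, 9 had a mean of 100 TPM or more, and the median was 41.8 TPM. The 9 were Spp1, Ibsp, both type I collagens, Pth1r, Alpl, Smpd3, a sphingomyelinase of mineralising tissue at 721 ± 156, the regulator Atf4 at 392.6 ± 4.72 and Omd, a small proteoglycan of bone, at 248 ± 57.5. Other regulators lay lower, with Sp7 at 57.4, 49.4 and 58.3 TPM (55.0 ± 4.90), Dlx5 at 45.1 ± 1.29 and Runx2 at 33.7, 35.2 and 46.6 (38.5 ± 7.05). Sox9 was 9.88 to 14.6 times Runx2 and 6.53 to 10.4 times Sp7. Msx2 had a mean of 0.111 TPM. The osteoblast and hypertrophic lists share Ibsp, Pth1r and Alpl, so their sums are not independent.

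Osteocyte genes were partly present, with 6 of 10 detected and a median of 4.50 TPM. Capg made up most of their sum, at 289 ± 30.4 TPM, and Dnajb9 (28.6 ± 3.22) is also counted in the secretory pathway list. Dmp1, a mineral-binding protein of osteocytes, was at 22.7, 15.1 and 29.8 TPM, while Sost was at 0.0742, Mepe at 0.143 and Fgf23 was listed at 0. Tendon and fibroblast genes had 12 of 15 detected and a median of 38.9. Apart from Dcn, Fmod and Lum, these were led by Egr1 and by Scx, the tendon regulator, at 83.0 ± 16.3 TPM. Ly6a and Thbs4 were at 49.5 ± 27.7 and 29.2 ± 25.6, and Ly6a was lowest in library 1 at 19.1 TPM.

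For stem and periosteal genes, 16 of 21 were detected, with a median of 9.45 TPM. The list includes Itgav, used for the positive gate, and Thy1, Eng and Enpep, whose proteins were gated out. Itgav, Thy1 and Eng are among the 16, so the count is not independent of the sort. Postn led, followed by Cd200, a surface glycoprotein used to enrich skeletal stem cells, at 604 ± 114, Nt5e, which encodes CD73, at 403 ± 51.6, and the protease Ctsk at 168 ± 9.69. Cd164 was at 144 ± 11.6 TPM. Prrx1, a limb mesenchyme regulator, stood at 16.4 ± 0.716 and Pdgfra at 9.45 ± 2.08. Gli1 was at 3.45 ± 0.950, and Lepr, Grem1 and Axin2 had means of 0.768, 0.678 and 0.770 TPM.

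Of 19 adipocyte and marrow stroma genes, 11 were detected, with a median of 7.07. Cebpb made up most of their sum, at 1643 ± 139 TPM. Cxcl12 was at 11.2 ± 5.13, and Adipoq and Pparg had means of 0.178 and 0.336.

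Lists of lymphocyte, macrophage, endothelial, osteoclast, skeletal muscle and red cell markers had medians under 1 TPM. Single members of some of these lists stood far above that. No lymphocyte gene of 10 was detected, and 6 of them, Cd3e included, were listed at 0. Of 15 macrophage genes 4 were detected, with a median of 0.141 TPM. C1qb was listed at 0, and C1qa, Csf1r and Adgre1 had means of 0.138, 0.400 and 0.0503. The detected members were Cd14 at 29.5, 52.9 and 42.7 TPM, Lyz2 at 6.80, 7.78 and 13.9, Fcgr3 at 4.07 ± 2.29 and Cd68 at 1.56 ± 0.652. The summed level of all 15 macrophage genes ranged from 48.1 to 66.3 TPM.

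Endothelial genes had 4 of 12 detected and a median of 0.826 TPM. The highest was Erg, a transcription factor, at 9.62, 13.6 and 8.45 TPM, before Esam at 3.15 ± 2.20, Egfl7 at 3.11 ± 0.776 and Pecam1 at 2.11 ± 0.486. Cdh5 and Kdr had means of 0.213 and 0.262. Of 10 osteoclast genes, 4 were detected. Ctsk held most of their sum, Acp5 was at 11.7 ± 0.243, and Calcr and Dcstamp were listed at 0. Of 12 skeletal muscle genes 4 were detected, Tnnt3 at 24.9, 14.5 and 19.1 TPM, Acta1 at 4.92 ± 0.585, Mylpf at 4.74 ± 2.22 and Des at 4.37 ± 1.21. The regulators Myod1, Myog, Pax7 and Myf5 were listed at 0. Of 10 neutrophil genes 4 were detected, with S100a9 at 8.56, 16.9 and 24.4 TPM and Elane listed at 0.

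Smooth muscle, nerve and red cell lists also held genes of clear level, with list medians of 5.61, 5.03 and 0.835 TPM. Of 14 smooth muscle and pericyte genes 10 were detected. Their summed level was 222, 364 and 396 TPM, with Cspg4 at 104 ± 5.02, Acta2 at 39.6, 95.4 and 101 and Myh11 at 1.47, 5.81 and 7.67. Library 1 was the lowest for Acta2 and Myh11, but not for Cspg4. Rgs5, a pericyte marker, had a mean of 0.711. Of 10 nerve genes 6 were detected. S100b, which chondrocytes also express, stood at 105 ± 9.87, while Sox10 was at 0.392, 0.539 and 1.99 TPM. Of the 12 red cell and platelet genes 5 were detected, with Hba-a2 at 74.2, 109 and 167 TPM. Alas2, needed for haem in red cells, had a mean of 0.986. In bulk RNA, fewer cells of a type and less RNA per cell cannot be told apart.

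**Figure D3:**
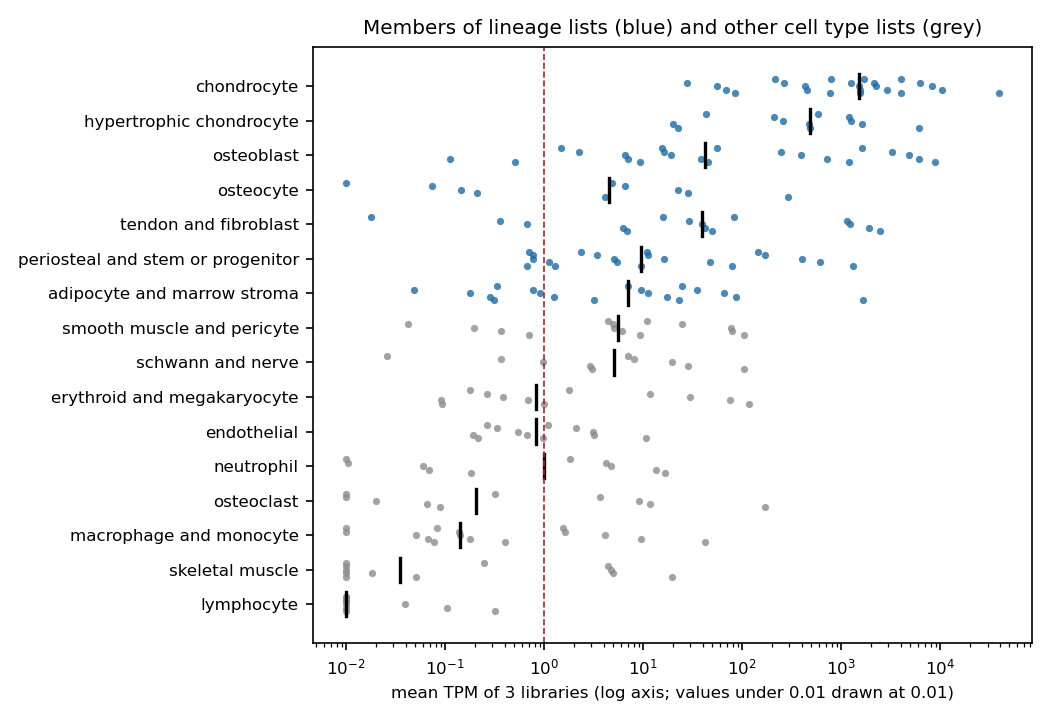
Mean TPM (log axis) of each member of 7 skeletal lineage lists (blue) and 9 lists of other cell types (grey); bars mark the list median and the dashed line 1 TPM. The chondrocyte and hypertrophic chondrocyte members all lie above 1 TPM, and the lymphocyte members all lie below it.

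Receptors were mostly of low level: 144 of 227 were detected, the median was 4.92 TPM and 15 had a mean of 100 or more. Pth1r led by a wide margin. Nr4a1, a nuclear receptor induced early after stimulation, was next at 391 ± 57.6. The FGF receptors were unequal. Fgfrl1, a decoy-type member without a kinase, was at 344 ± 20.5 TPM, and Fgfr3, which restrains chondrocyte proliferation, was at 222, 271 and 293 (262 ± 36.4). Fgfr2 (64.8 ± 12.0) and Fgfr1 (49.7 ± 10.1) were lower, and Fgfr3 exceeded Fgfr1 by 4.30 to 6.96 times. Of the 31 tyrosine kinase receptors and relatives, 19 were detected.

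Trpv4, a mechanically gated calcium channel of chondrocytes, was at 294 ± 34.9 TPM. It headed a list of 31 guidance, adenosine, prostaglandin and lysophospholipid receptors, though as a channel it is none of these. Of that list 20 were detected. Lpar1 and Lpar4, receptors of lysophosphatidic acid, followed at 42.5 ± 8.72 and 39.0 ± 5.14. Among 33 cytokine and chemokine receptors 25 were detected, a median of 13.8 TPM. Tnfrsf12a, the TWEAK receptor, led at 252 ± 33.2, before the chemokine scavenger Ackr3 at 119, 120 and 122 (120 ± 1.20) and Tnfrsf1a at 72.1 ± 4.62. Cxcr4 had a mean of 0.0564 TPM.

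Receptors of matrix outside the integrins were nearly all present. Of 14 non-integrin matrix receptors 12 were detected, with Sdc3 (283 ± 15.9) and Sdc4 (279 ± 39.6), both heparan sulfate carriers, Cd47 (118 ± 13.1), Cspg4 (104 ± 5.02) and Sdc2 (86.3 ± 11.9) at the head. The collagen receptor Ddr2 was at 31.5 ± 4.09. Of 26 integrin genes 12 were detected, near the 49.1% of all protein-coding genes, and their median was 1.10 TPM. Itgb1 was at 188, 243 and 198 TPM (210 ± 29.1), and Itgb5 at 105 ± 10.7, Itga5 at 50.04 ± 7.47 and Itgav at 46.8 ± 4.45. Itgb1 exceeded Itgav by 4.08 to 4.84 times. The collagen-binding chains Itga10, Itga1 and Itga11 were at 14.6 ± 1.93, 11.2 ± 2.37 and 9.99 ± 1.62. The leukocyte chains Itgb2, Itgal and Itgad were listed at 0.

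In the Wnt receptor list 14 of 23 were detected. Fzd9, a Frizzled, was at 142, 181 and 142 TPM (155 ± 22.2), and Ryk at 70.8 ± 5.70. Lgr4, Ror2, Lrp6 and Lgr6 lay between 12.9 and 19.7. Of the 18 BMP and TGF-beta receptors 15 were detected, led by the pseudoreceptor Bambi at 82.4 ± 12.4, Neo1 at 50.2 ± 4.03 and Tgfbr2 at 29.7 ± 2.67. Acvr1 and Bmpr1a were close together at 15.2 ± 1.80 and 14.97 ± 2.33. In the hedgehog and Notch list 6 of 11 were detected, near the 49.1% of all protein-coding genes. Smo was at 28.6 ± 4.77 and the hedgehog receptor and target Ptch1 at 17.8, 8.01 and 17.5 TPM. Notch1 and Notch4 had means of 0.895 and 0.440.

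Of 12 ephrin receptors 7 were detected, led by Epha3 at 39.1 ± 8.29 TPM. Of 32 hormone and nuclear receptors 17 were detected, near the 49.1% of all protein-coding genes. After Pth1r and Nr4a1, Nr4a2 was at 119 ± 30.8, the C-type natriuretic peptide receptor Npr2 at 57.6, 31.8 and 55.2, the glucocorticoid receptor Nr3c1 at 37.0 ± 2.72 and the growth hormone receptor Ghr at 36.1 ± 3.32. The estrogen receptor Esr1 had a mean of 0.482 TPM.

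Among secreted signals and their antagonists, 112 of 193 were detected, with a median of 3.64 TPM and 19 at 100 or more. Mif, a cytokine that many cells make, was at 3246, 3729 and 2528 TPM (3168 ± 604), and Igfbp7, an IGF- and activin-binding protein, at 2663 ± 190. Next came Ptgs2, which is no ligand but the inducible enzyme of prostaglandin synthesis, at 426, 673 and 559 TPM (552 ± 124). Inhba, the activin A chain, was at 461, 740 and 449 (550 ± 165), highest in library 2. Vegfa ranged from 341 to 624 TPM.

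The other cytokines included the neutrophil attractant Cxcl1 at 301 ± 57.1, Il11 at 64.7 ± 14.7, Ccl2 at 15.3, 85.2 and 25.9 and Ccl7 at 27.0, 65.2 and 28.8 TPM. Ccl2 and Ccl7 were each highest in library 2. Of 38 genes in that list 23 were detected. Tnfrsf11b, osteoprotegerin, the decoy receptor of RANKL, was at 70.6 ± 17.1 and Tnfsf11, RANKL itself, at 9.26 ± 1.03, a ratio of 6.55 to 9.01. Il1a was listed at 0 and Il1b had a mean of 0.103.

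In the IGF, PDGF and EGF list 16 of 25 were detected. Igf2 was at 285, 299 and 279 TPM (288 ± 10.2), the heparin-binding Mdk at 199 ± 34.4, Igfbp6 at 125 ± 30.5, Igfbp4 at 124 ± 28.5 and Hbegf at 72.9 ± 14.5. Angptl2, an angiopoietin-like glycoprotein, was at 248 ± 26.2 TPM. Angiogenic and guidance ligands had 18 of 28 detected, with the ephrin Efna1 at 92.3 ± 3.43 and Angptl4 at 74.5 ± 16.8.

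Wnt ligands and antagonists had 16 of 33 detected, near the 49.1% of all protein-coding genes. Frzb, a Wnt antagonist of articular and growth cartilage, led at 271 ± 13.6 TPM, followed by Wnt5b at 143, 120 and 151 (138 ± 16.2) and Wnt11 at 124, 112 and 169 (135 ± 29.8). Wnt5b exceeded Wnt5a by 8.26 to 13.1 times. Wnt3a, Wnt7a and Wnt9b were listed at 0. Of 30 BMP, GDF and antagonist genes 19 were detected. Twsg1, a BMP-binding protein, was at 152 ± 19.9, Gdf5, a joint and cartilage growth factor, at 112, 155 and 148 (138 ± 23.1), Fstl1 at 126 ± 24.7, Chrdl1 at 117 ± 12.5, the protease Bmp1 at 91.9 ± 6.63 and Bmp2 at 62.2 ± 8.41. Bmp4 had a mean of 0.0325 TPM.

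For TGF-beta, activin and latency genes, 11 of 12 were detected. Below Inhba, the isoforms Tgfb1, Tgfb2 and Tgfb3 had library ranges that overlapped, at 46.1 ± 6.29, 38.8 ± 5.09 and 37.1 ± 5.36 TPM. FGF ligands were scarce. Of 16 in the list 5 were detected, Fgf7 was highest at 13.6 ± 5.08, and Fgf8, Fgf20 and Fgf23 were listed at 0.

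Hedgehog, PTHrP and Notch ligands had 4 of 11 detected. Ihh was at 190, 154 and 287 TPM (210 ± 68.6), highest in library 3 and lowest in library 2, and Shh was listed at 0. Pthlh was at 0.914, 2.57 and 3.53 TPM (2.34 ± 1.32). Ihh exceeded Pthlh by 60.04 to 208 times, and the receptor Pth1r exceeded its ligand Pthlh by 526 to 1781 times. The Notch ligand Dlk2 was at 22.3 ± 4.39 TPM, and Dll1 and Jag2 had means of 0.00964 and 0.138.

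Among transcription factors and related regulators, 180 of 278 were detected, with a median of 5.95 TPM and 28 at 100 or more. Fos and Junb, of the AP-1 family, stood highest, before Cebpb. Fos was at 3487, 2697 and 3311 TPM (3165 ± 415), Junb at 2733, 2378 and 3042 (2718 ± 332), Jund at 1304 ± 193, Egr1 at 1134 ± 120 and Jun at 966 ± 84.1. Fos, Junb and Jun were each lowest in library 2. All 30 genes of the AP-1, ATF, CREB and EGR list were detected, and Atf4, an effector of the stress response, was at 392.6 ± 4.72.

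Cebpb was at 1512, 1789 and 1630 TPM (1643 ± 139) and led the list of NFI, MEF2, SMAD, STAT and related factors, of which 49 of 57 were detected. Ctnnb1, beta-catenin, was at 318 ± 36.0, Mef2c, a driver of hypertrophy, at 257, 215 and 308 (260 ± 46.2), Stat3 at 128 ± 17.9, Wwtr1 at 97.5 ± 3.32 and Nfic at 91.4 ± 11.5. Of the Id proteins, which block bHLH factors, Id3 was at 980, 975 and 972 TPM (976 ± 3.85), Id1 at 781 ± 11.1 and Id2 at 636 ± 120. Id3 and Id1 were steady, and Id2 was lowest in library 1 at 519. Bhlhe40, a clock and hypoxia regulator, was at 677 ± 56.2, Hif1a at 283 ± 58.2 and Myc at 205 ± 24.2.

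Of 33 zinc finger regulators 27 were detected. Klf2 was at 1128, 753 and 924 TPM (935 ± 188), Klf6 at 544, 479 and 577 (mean 533), Klf10 at 280 ± 41.2, Klf3 at 145 ± 13.4 and Klf4 at 96.7 ± 9.49. Zfp36, listed with them, binds RNA and not DNA and was at 506 ± 66.8. Of 19 SOX genes only Sox9, Sox5, Sox6, Sox8 (40.8 ± 14.1) and Sox4 (29.4 ± 5.82) were detected, and Sox10, a neural crest and glial factor, had a mean of 0.974 TPM.

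The bone regulators had 8 of 15 detected, near the 49.1% of all protein-coding genes. Cbfb, the partner of RUNX factors, was at 95.9 ± 13.0 and Runx1 at 61.5, 87.4 and 82.6 TPM (77.2 ± 13.8), above Runx2 and Runx3 (22.3 ± 7.03). FOX genes had 14 of 22 detected, with Foxa3 at 73.1 ± 9.52, Foxc1 at 64.8 ± 6.46, Foxp1 at 50.1 ± 3.28 and Foxc2 at 35.6 ± 6.13. Foxa1 had a mean of 0.154 TPM.

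Limb patterning genes ranged widely. Shox2 and Prrx2, limb mesenchyme homeobox genes, were at 98.2 ± 17.9 and 81.1 ± 13.3 TPM. In that list 20 of 36 genes were detected, near the 49.1% of all protein-coding genes. Pitx1, a hindlimb gene, was at 17.9 ± 1.81, while Tbx5, a forelimb gene, had a mean of 0.445. Of 39 HOX genes 9 were detected, led by Hoxa10 at 24.3 ± 3.61, Hoxa9 at 13.5 ± 3.45 and Hoxa7 at 13.5 ± 5.96. The HOXD genes Hoxd9 to Hoxd13 stayed below 1 TPM in all 3 libraries.

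**Figure D4:**
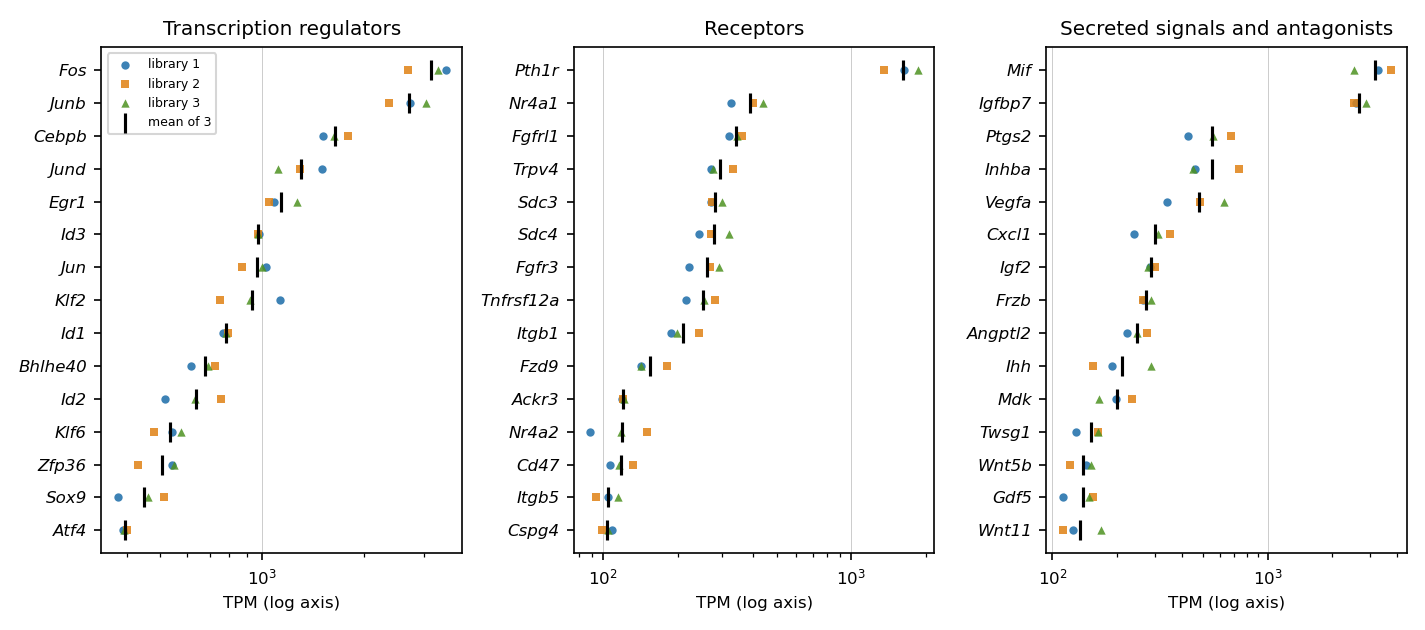
TPM (log axis) of the 15 most abundant genes of the transcription factor, receptor and ligand lists; points are libraries and bars the mean. Fos, Pth1r and Mif lead their panels. Zfp36 and Ptgs2 are list members that bind RNA and make prostaglandins.

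Growth and metabolism genes completed the profile. Of 28 cell cycle genes 27 were detected, but the highest were inhibitors: Cdkn1a at 889, 923 and 1016 TPM (942 ± 65.8) and Cdkn1c at 796, 638 and 730 (721 ± 79.6). Ccnd3 was at 124 ± 16.5, Cdk1 at 74.4 ± 14.7, Birc5 at 63.5 ± 26.5 and Pcna at 53.5 ± 6.86. Mki67 stood below the list median of 16.8 TPM, at 4.35, 4.76 and 3.04, and Cdkn1a exceeded it by 194 to 334 times. Cdkn2a, which encodes p16, had a mean of 0.0938. All 22 glycolysis genes were detected, with a median of 167 TPM. Eno1 (3239 ± 442), Gapdh (3217 ± 322), Ldha (2340 ± 208), Pkm (1685 ± 40.6) and Aldoa (1120 ± 88.1) led, and the glucose transporter Slc2a1 was at 297, 513 and 450 TPM.

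The spread between libraries was widest at low levels and did not narrow further above 1000 TPM. The median CV was 31.4% over 6581 genes with means of 1 to 10 TPM, 13.2% over 5552 genes from 10 to 100, 8.67% over 1366 genes from 100 to 1000 and 9.68% over the 142 genes above. Of 6700 protein-coding genes with a mean of 10 TPM or more, 196 (2.93%) had a highest library at least 2 times the lowest.

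At 100 TPM or more the steadiest named genes were of varied roles. Ncmap, at 298, 298 and 297 TPM, had a CV of 0.176%, and Tmem59, the myosin light chain Myl6, Tceal8, Id3, Glt8d1, Bccip, Sumo2, the histone H3f3a, Dda1, Atp6v1f and Maged1 had CVs up to 0.742%. The most variable was Prg4, lubricin of joint surfaces, at 25.2, 34.3 and 279 TPM, which library 3 decides: without it the mean falls from 113 to 29.8. Bc1, a small non-coding RNA, was at 368, 285 and 119 TPM, and Hist1h2ap, a histone gene with near-identical copies, at 838, 1208 and 559. Hba-a2, Plk2, Hpgd, Snhg14 and the class II gene H2-Ab1 (264, 99.7 and 241 TPM) completed the set with Ibsp, Col10a1, Ihh and Spp1.

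Those last 4 shared an order. Each was lowest in library 2 and highest in library 3, as were 1214 (18.1%) of protein-coding genes with a mean of 10 TPM or more. The same order held for 8 of 12 hypertrophic genes, 10 of the 15 osteoblast genes with a mean of 10 or more, and 7 of 24 chondrocyte genes. The hypertrophic count includes Ibsp, Col10a1 and Ihh, and the osteoblast count Ibsp and Spp1, from which the order was taken. Ibsp, Pth1r and Alpl are counted in both lists. Other lists held the order too, at a mean of 10 TPM or more. It held for 6 of 11 other collagens, Col10a1 included, 5 of 9 fibrillar collagens and 10 of 24 AP-1, ATF, CREB and EGR genes. It held for 0 of 20 glycolysis genes and 0 of 26 secretory pathway genes. Medians of CV were 23.9% for the hypertrophic, 18.3% for the osteoblast and 9.68% for the chondrocyte list. Markers of other cells differed between libraries too. The summed red cell list was at 154, 221 and 341 TPM and the summed nerve list at 160, 179 and 186, beside the smooth muscle sums given above, and the part of such cells in the order was not tested.

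**Figure D5:**
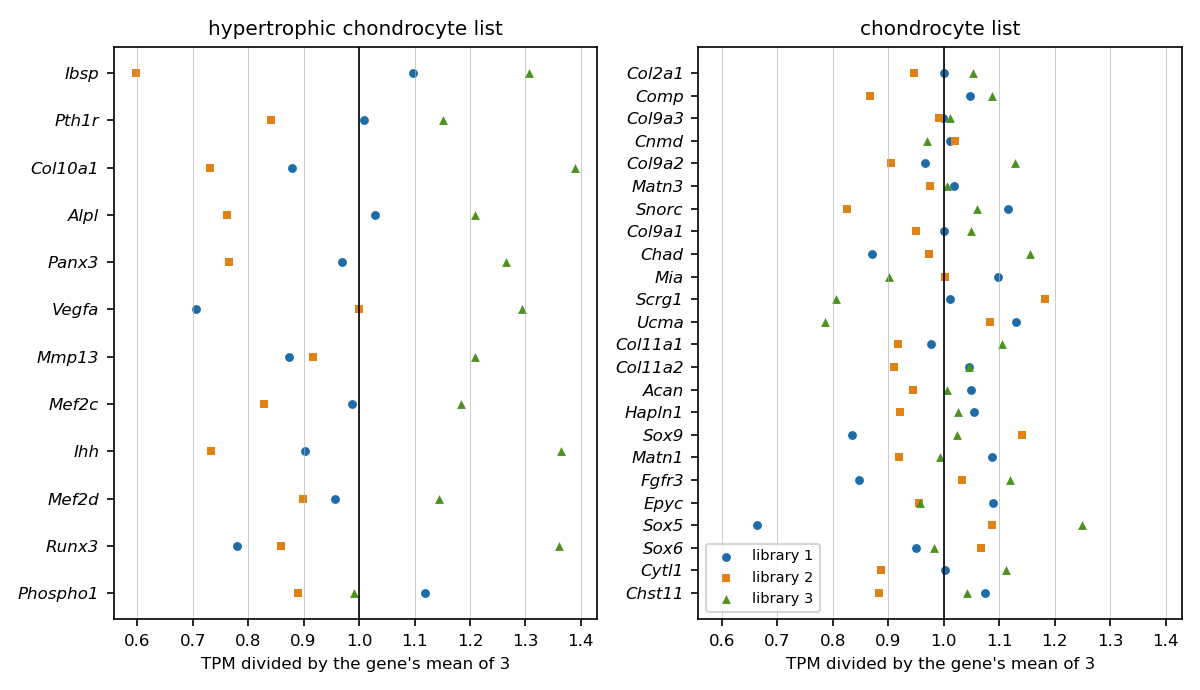
TPM of each library divided by the gene's mean of 3, for the hypertrophic chondrocyte list (left) and the chondrocyte list (right). On the left 8 of 12 genes have library 2 lowest and library 3 highest, and on the right 7 of 24 do, with points nearer to 1. Ibsp, Col10a1 and Ihh, from which the order was taken, are among the 8.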

How the data were processed

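Cells were sorted from mouse fracture callus and sequenced in bulk. The deposited table gives, per the file headers, log2 values for 53607 rows and 9 columns, and taking them back as log2(TPM + 1) made every column used here sum to 1000000. TPM, a level scaled for transcript length, keeps no depth, so no counting interval is given. The authors used Salmon and GRCm38.p6, per the submitters' processing notes. The Salmon version, like the annotation and strand setting, was not given in the sources used here, and values of near-identical copies or overlapping genes are uncertain.

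Here the 3 columns of 2 months were averaged (SD, n = 3) and ranked with Python 3.11.15 and pandas 2.3.3. The other 6 columns were not used, and no test was run. Libraries 1 to 3 follow the order of the columns, which carry no replicate number. A row at 1 TPM or more in all 3 libraries was called detected. Biotypes and coordinates came from GENCODE M21 by symbol (98.9% of rows matched). The 26 rows that carry a date in place of a symbol were not named. The calculations were tested on simulated data.

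The cells and the 56 gene lists were chosen with earlier results of these data known. Genes were named by rule: the 30 most abundant named genes, up to 6 top members per list, the gate and lineage genes, the 12 highest and 12 lowest coefficients of variation (CV, SD as a percent of the mean) at 100 TPM or more, the top 15 receptors, ligands and transcription factors, and defining members that were not detected. Results for 5 genes of the lists and top ranks are not reported here. The promoters and motifs printed, the pairs set in ratio, the order of libraries 3 and 2, and members named beyond the rule were chosen after their values were seen.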

Additional observations from a re-analysis of the deposited data

How the results depend on the processing

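No paired analysis was possible because a single group is described and no groups are compared. Of 273 recomputed values, 205 moved by less than the spread between libraries, or, for counts, by less than 1.5 times, and 68 moved by more. Leaving out 1 of 3 libraries cannot move a mean of the 3 by 1 SD. For gene means and pool shares those values were therefore bound to move by less, and the 205 is no measure of robustness. Without each library in turn, 12292 to 12483 rows were detected, 96 to 98 of the 100 most abundant genes remained among the first 100, and the chondrocyte share was 8.86 to 9.26%. Over protein-coding, non-mitochondrial rows that share was 9.89%. Detection ran from 8285 rows at a threshold of 5 TPM to 16190 at 0.1. With members under 1 TPM left out, 42 lists in place of 20 had a median of 10 TPM or more, since the filter removes low members, and 1 list had no member left. The median rose in 48 of 56 lists, and in 44 it moved by more than 1 SD. With the filter, the medians of the osteoblast, macrophage and endothelial lists were 55.0, 6.78 and 3.13 TPM. With 1 library left out, 14 lists had a median that moved by more than 1 SD. The count of lists at 10 TPM and these 3 examples were chosen after the values were seen, the count in place of an earlier choice of single lists also made after seeing them. The median CV over genes of 1 TPM or more, 18.3%, was 12.0% over genes of 10 or more and 14.8 to 15.1% without one library, where an SD rests on 2 values. The median SD of log2(TPM + 1) was 0.232. Rescaling after removal of mitochondrial genes and the top 50 gave 623 TPM for Sox9 and 64.9 for Itgav, a factor of 1.39 that applies to all remaining genes. With 3 libraries of unknown single depth, low values cannot be told apart from values not detected.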

Other observations

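Genes of antigen presentation formed an uneven set, looked up after the values were seen. H2-Ab1, the beta chain of a class II molecule, was at 264, 99.7 and 241 TPM, and H2-DMb1 and H2-DMa, chains of the peptide editor of that pathway, were at 142, 93.9 and 121 and at 106, 69.5 and 85.8 TPM. All 3 were highest in library 1 and lowest in library 2. H2-Aa, the alpha chain that pairs with H2-Ab1, was at 3.51, 1.58 and 2.41 TPM, H2-Eb1 at 1.96, 1.27 and 0.878, and the invariant chain Cd74 at 0.349, 1.32 and 0.353. Ciita, the activator of class II genes, had a mean of 0.185, and Ptprc was listed at 0. The class I genes B2m, H2-D1 and H2-K1 were at 391 ± 23.6, 154 ± 16.8 and 152 ± 12.1 TPM (SD, n = 3). Levels of closely related family members are uncertain where they share sequence.

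Of the 30 protein-coding genes with the widest ranges at a mean of 10 TPM or more, 14 were lowest in library 1 and highest in library 3, an order held by 21.1% of all 6700 such genes. Among the 14 were Ly6a (19.1, 56.2 and 73.1 TPM), Mfap5 (16.1, 46.9 and 61.9), Gas1 (6.75, 19.5 and 24.9), Sparcl1 (9.08, 23.2 and 29.8), Apoe (9.09, 27.3 and 37.1), Tagln (10.7, 25.1 and 38.0), Fxyd2 (14.2, 32.6 and 43.5), Tlr2 (13.8 ± 6.61) and S100a9 (8.56, 16.9 and 24.4). The order was chosen after the values were seen. Lcn2, at 37.4, 2.85 and 32.3 TPM, and Ccl2, at 15.3, 85.2 and 25.9, were among the 30 with other orders.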
